A study of Mus musculus with 12 samples.

Results

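The genes described here are 10 members of the platelet-derived growth factor (PDGF) and epidermal growth factor (EGF) systems: the ligands Pdgfa, Pdgfb, Pdgfc and Pdgfd, their receptors Pdgfra and Pdgfrb, the EGF family ligands Hbegf, Ereg and Areg, and the receptor Egfr. They were chosen by name from the gene annotation of the array, among 34796 gene names on non-control probes. The rule that picks them uses no measured value, but the members were chosen with earlier results of these data known. The 10 genes had 14 probes, of which 12 probes, covering 9 genes, were bright enough to be tested. RNA was measured in the aorta of male C57BL/6J mice aged 11 to 14 weeks, with 12 1-colour Agilent arrays in 4 groups of 3 mice at day 3. The model of aortic dissection combined 2 infusions, 150 mg/kg/day of BAPN (beta-aminopropionitrile, an inhibitor of collagen crosslinking) and 1 µg/kg/min of AngII (angiotensin II, a hormone that constricts vessels and raises blood pressure). The groups were DMSO (the vehicle with no challenge), rapamycin (2 mg/kg/day, an inhibitor of the kinase mTOR, with no challenge), BA+DMSO (BAPN and AngII with vehicle) and BA+rapamycin (BAPN and AngII with rapamycin). All mice received daily injections of vehicle or rapamycin, and the labels name no engineered allele. DMSO sample titles begin with Pre, while the series record gives day 3 and DMSO alone for this group; the treatment label was followed. The labels name the tissue only as aorta, and per the study's methods the aorta taken for RNA lay just above the branch of the right renal artery.

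PDGFs are dimeric ligands that bind receptor tyrosine kinases on mesenchymal cells, and in the vessel wall they drive migration and division of smooth muscle cells and fibroblasts. Pdgfa and Pdgfc signal mainly through the alpha receptor, and Pdgfb and Pdgfd through the beta receptor, which recruits mural cells to endothelium. The EGF family ligands are made as membrane-bound precursors that proteases release, and they bind EGFR, the receptor that AngII can transactivate in smooth muscle through shed HB-EGF.

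A value below is log2 of the processed signal over the 75th percentile of that array, so that 0 is the 75th percentile and each unit is a 2-fold step. Brightness differed between arrays: the 75th percentile of the signal in intensity units ran from 221 to 280 on DMSO arrays, from 257 to 337 on rapamycin arrays, from 78.1 to 246 on BA+DMSO arrays and from 74.6 to 109 on BA+rapamycin arrays. The 3 DMSO arrays and rapamycin replicate 1 lay on slide 1 and the other 8 arrays on slide 2, so slide and challenge cannot be told apart within the comparison of BA+DMSO with DMSO. No deposited spot was marked as saturated. Smooth muscle markers were present on every array: the summed level of 9 of them, in multiples of the 75th percentile signal, was 2982 to 3190 in DMSO and 2497 to 4935 in BA+DMSO.

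Under the challenge, 2 members passed the test against DMSO and moved in opposite directions: Pdgfb rose 2.00-fold and Pdgfd fell by 0.87 on the log2 scale. Pdgfa had an adjusted p of 0.0554 at the brighter of its 2 overlapping probes, by which it was judged, and 0.044 at the other. In the presence of rapamycin, the challenge raised Pdgfa and Pdgfb and lowered Pdgfd, by 0.96, 0.84 and -1.51. Both PDGF receptors, Egfr, and the EGF family ligands Hbegf and Ereg did not pass the test in any comparison, and Areg was not well above background on any array. Of the 9 tested members, 2 were called between BA+DMSO and DMSO (1 higher, 1 lower), beside 20.5% of all 27801 tested probes (9.65% higher and 10.8% lower). Between BA+rapamycin and rapamycin, 3 of 9 were called (2 higher, 1 lower), beside 41.7% of all probes (18.9% higher and 22.9% lower), so the share of members called was near or below that of the array. The median difference over the 9 members was 0.11 between BA+DMSO and DMSO, with -0.04 over all tested probes, and -0.02 between BA+rapamycin and rapamycin, with -0.08 over all. Rapamycin called none of the 9 members without the challenge (0.0036% of all probes called) and none with it (0.281%), by limma with Benjamini-Hochberg adjustment over all tested probes. At an unadjusted p under 0.05, 2 of 9 members passed without the challenge, beside 4.27% of all probes, and 2 of 9 with it, beside 20.1%. The difference between the 2 rapamycin effects, the interaction, was called for no member and for no probe (0%), with 0 members and 1702 probes at an unadjusted p under 0.05. These comparisons share groups of 3 arrays, so they are not independent of each other.

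**Figure D1:**
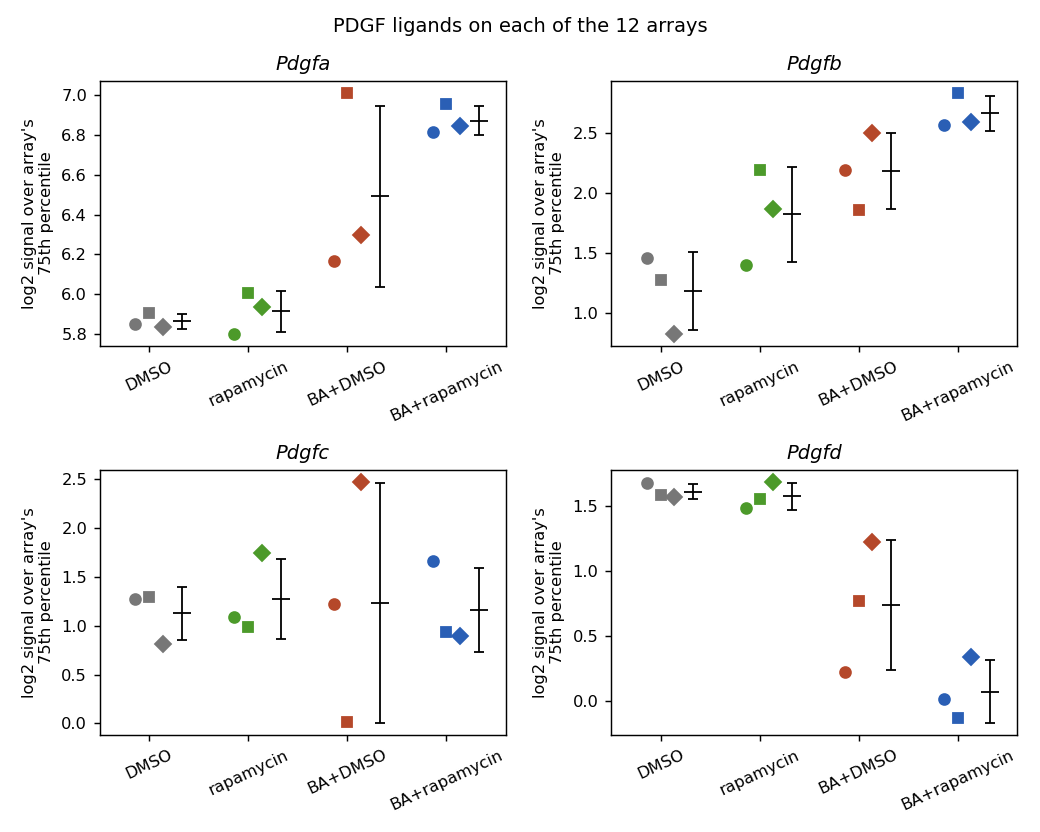
Values of the 4 PDGF ligands on each array (log2 signal over the array's 75th percentile), by group; circles, squares and diamonds are replicates 1, 2 and 3, and bars give the mean and SD of 3. Pdgfd of the challenged arrays lies at or below 1.23, under all 6 unchallenged arrays, and Pdgfa of the BA+rapamycin arrays lies at or above 6.81.

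Sequences upstream of the start sites of Pdgfa and Pdgfd are given because these 2 genes were called in opposite directions between BA+rapamycin and rapamycin. Between BA+DMSO and DMSO the lead probe of Pdgfa was not called. They are the 250 bases before a RefSeq start site, 5′ to 3′ (GRCm38.p6, RefSeq). The promoter set used here had no entry for Pdgfb, Pdgfrb, Hbegf and Ereg. Capitals mark matches to the motifs searched on both strands, GC box GGGCGG, EGR1 site GCGNGGGCG, AP-1 site TGANTCA, CRE TGACGTCA and TATA box TATAAA. Pdgfa has 2 start sites in this set, and the upstream one is shown:
Pdgfa promoter chr5:138994945-138995194 minus strand: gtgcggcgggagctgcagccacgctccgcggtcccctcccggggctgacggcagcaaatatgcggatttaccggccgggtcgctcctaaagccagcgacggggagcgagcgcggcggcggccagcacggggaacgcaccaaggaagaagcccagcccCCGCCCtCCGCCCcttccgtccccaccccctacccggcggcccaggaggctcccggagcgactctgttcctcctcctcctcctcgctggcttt
Pdgfd promoter chr9:6168236-6168485 plus strand: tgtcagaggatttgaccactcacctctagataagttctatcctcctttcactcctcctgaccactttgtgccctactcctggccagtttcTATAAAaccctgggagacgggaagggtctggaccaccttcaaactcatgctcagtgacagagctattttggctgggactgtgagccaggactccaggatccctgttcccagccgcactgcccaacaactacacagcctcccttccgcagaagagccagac
The Pdgfa window had 72.4% G and C and 2 GC boxes, both on the minus strand of the window and at positions -93 and -86 relative to the start site. The Pdgfd window had 53.6% G and C, no GC box, and 1 TATA box at position -160. Of 32851 mouse promoter windows of this length, 32.7% held a GC box and 12.4% a TATA box. Matches to the EGR1, AP-1 and CRE motifs were in neither window, beside 4.7%, 6.75% and 1.55% of all windows. These are letter matches in 250 bases and say nothing about binding.

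Pdgfa encodes the A chain, which forms PDGF-AA and acts on the alpha receptor. Its lead probe (the probe of the gene with the highest mean) gave 5.85, 5.91 and 5.84 in DMSO and 5.80, 6.01 and 5.94 in rapamycin. After challenge the values were 6.17, 7.01 and 6.30 in BA+DMSO and 6.81, 6.95 and 6.84 in BA+rapamycin. All 6 challenged arrays were above all 6 unchallenged ones, and BA+DMSO replicate 2 was the highest of its group. The difference between BA+DMSO and DMSO was 0.63 (SE 0.21, 95% interval 0.17 to 1.08, n = 3 each), with an adjusted p of 0.0554, above the threshold of 0.05. Without BA+DMSO replicate 2 it was 0.37 (adjusted p 0.0499). A second Pdgfa probe, which shares 51 bases with the first and is not an independent measurement, gave 0.68 with an adjusted p of 0.044. BA+rapamycin exceeded rapamycin by 0.96 (SE 0.21, 95% interval 0.50 to 1.41), a 1.94-fold rise with an adjusted p of 0.00589. Rapamycin under challenge differed by 0.38 (adjusted p 0.303) and the interaction was 0.33 (adjusted p 0.743). Without BA+DMSO replicate 2 these became 0.64 (adjusted p 0.00545) and 0.59 (adjusted p 0.0491), while the calls over all 27801 probes went from 78 to 11092 and from 0 to 3058, so the move was not particular to Pdgfa. That array was the dimmest of its group, with a 75th percentile of 78.1. Without BA+DMSO replicate 1 the difference for rapamycin under challenge was 0.22 (adjusted p 0.551) and the interaction 0.17 (adjusted p 0.857). With the brightness of each array as a covariate the difference between BA+rapamycin and rapamycin was 0.41 (adjusted p 0.413). Within slide 2, the same fit as without rapamycin replicate 1, it was 0.90 (adjusted p 0.0258). After normexp background correction it was 0.52 (adjusted p 0.0128). With the date in the titles as a block it was 0.89, and since each challenged array then has at most 1 other array of its date to be set against, differences with this block are given here with no test. The difference between BA+DMSO and DMSO was 0.36 after that correction and 0.32 with the brightness covariate (adjusted p 0.102 and 0.305).

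Pdgfb encodes the B chain, which endothelial cells and platelets release and which binds both receptors. Its lead probe read 1.46, 1.27 and 0.82 in DMSO and 2.19, 1.86 and 2.50 in BA+DMSO. Rapamycin alone gave 1.40, 2.20 and 1.87, and BA+rapamycin gave 2.57, 2.84 and 2.60. Values of BA+DMSO lay above DMSO with no overlap, and those of BA+rapamycin lay above the other 3 groups. The rise between BA+DMSO and DMSO was 1.00 (SE 0.25, 95% interval 0.45 to 1.56), with an adjusted p of 0.0193, and between BA+rapamycin and rapamycin 0.84 (SE 0.25, 95% interval 0.29 to 1.40), with an adjusted p of 0.0222. The second call was lost after normexp background correction (0.44, adjusted p 0.147), with the brightness covariate (1.39, adjusted p 0.0649), and without rapamycin replicate 1 (0.63, adjusted p 0.0886), rapamycin replicate 3 (0.87, adjusted p 0.0596) or BA+rapamycin replicate 2 (0.76, adjusted p 0.072), and with the title date as a block the difference was 0.16. Rapamycin arrays were 0.64 above DMSO (unadjusted p 0.0278, adjusted p 1.0) and BA+rapamycin arrays 0.48 above BA+DMSO (adjusted p 0.289), and neither passed. The rise between BA+DMSO and DMSO was 0.37 with the slide as a fixed block (adjusted p 0.764) and 0.77 with the title date as a block. The slide term rests on rapamycin replicate 1 against rapamycin replicates 2 and 3, since no other group lies on both slides. The rise also lost its call after normexp background correction (0.74, adjusted p 0.0516), without DMSO replicate 2 (1.05, adjusted p 0.0612), without DMSO replicate 3 (0.82, adjusted p 0.0774) or without BA+DMSO replicate 1 (1.00, adjusted p 0.0566). At the main difference of 1.00, its adjusted p was 0.0884 with only the arrays compared and 0.0511 with no filter on dim probes. Among rapamycin-treated arrays on slide 2, the comparison of BA+rapamycin with rapamycin is the same fit as that without rapamycin replicate 1 (0.63, adjusted p 0.0886). On slide 1 that 1 rapamycin array was 0.22 above the mean of the 3 DMSO arrays and below DMSO replicate 1. In the 2 DMSO and 2 rapamycin arrays whose titles share a date, rapamycin was 0.99 above DMSO, given with no test. A second Pdgfb probe was well above background on 3 of 12 arrays and was not tested.

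Marker lists of other cell types held genes that rose between BA+DMSO and DMSO, as Pdgfb did, where 20.5% of all probes were called. Of 6 tested platelet markers 1 rose (Pf4, platelet factor 4, 1.46, adjusted p 0.0202), with a summed level of 6.38 to 16.2 in DMSO and 19.0 to 41.4 in BA+DMSO. Of these 6, 3 rose between BA+rapamycin and rapamycin, beside 41.7% of all probes called, with a median of 1.97 over the list, while Pf4 was at 0.05 (adjusted p 0.924) and the sum was 9.72 to 11.8 in rapamycin and 11.1 to 14.5 in BA+rapamycin. A probe at background differed too: Areg, well above background on no array, had means of -6.29 in rapamycin and -4.33 in BA+rapamycin. Whether dim spots set the platelet median was not tested. Of 10 endothelial markers 3 rose, with sums of 114 to 135 in DMSO, 134 to 192 in rapamycin, 162 to 243 in BA+DMSO and from 197 to 302 in BA+rapamycin. All 10 macrophage markers rose, with sums of 24.2 to 45.2 and 72.6 to 181. All 4 tested erythroid markers rose, with sums of 18.1 to 84.2 in DMSO, 80.5 to 187 in rapamycin, 114 to 234 in BA+DMSO and from 309 to 350 in BA+rapamycin, and the endothelial and erythroid sums both ran in the same order of groups as the mean of Pdgfb. Of 7 mesothelial or simple epithelial markers 5 rose, with sums of 12.5 to 23.2 in DMSO and 21.0 to 31.0 in BA+DMSO. Markers of fibroblasts (2 of 10), lymphocytes (2 of 5), neutrophils (1 of 4) and adipocytes (1 of 6) also rose, and none of 6 striated muscle markers was called. Fibroblast sums were 875 to 1250 in DMSO and 1086 to 1683 in BA+DMSO. The highest fibroblast and lymphocyte sums of each group also ran in the order of the mean of Pdgfb, but the lowest did not. In the comparison of BA+rapamycin with rapamycin, where Pdgfb also rose, 6 of 10 macrophage, 3 of 4 erythroid and none of 7 mesothelial or simple epithelial markers rose, and of 10 endothelial markers 2 rose and 2 fell, while their sum was higher with no overlap. In that comparison 4 of 10 fibroblast markers rose and 2 fell, with sums of 1200 to 1273 in rapamycin and 1578 to 1889 in BA+rapamycin. Of 5 lymphocyte markers 2 rose, of 4 neutrophil markers none was called, and of 6 adipocyte markers 1 fell. Of 6 striated muscle markers 1 rose and 1 fell. Among the platelet, endothelial and macrophage markers, Gp6 was the 1 gene not well above background on any of the 12 arrays. Their part in the rise of Pdgfb was not tested, and in bulk RNA more cells of a type and more RNA per cell cannot be told apart.

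Pdgfc encodes a ligand that needs proteolytic activation, as Pdgfd does, and acts mainly on the alpha receptor. It ranged from 0.82 to 1.29 in DMSO, from 0.99 to 1.75 in rapamycin, from 0.01 to 2.48 in BA+DMSO and from 0.89 to 1.66 in BA+rapamycin, and all groups overlapped. The difference between BA+DMSO and DMSO was 0.11 (SE 0.50, 95% interval -0.995 to 1.21, adjusted p 0.898), and between BA+rapamycin and rapamycin -0.11 (SE 0.50, adjusted p 0.868), a direction that turned with quantile normalization (0.01) and 75th percentile scaling over detected probes (0.07). BA+DMSO replicate 3, the brightest challenged array, gave the highest value and replicate 2, the dimmest of its group, the lowest. With brightness as a covariate the 2 differences became 1.38 (adjusted p 0.00883) and 2.12 (adjusted p 0.0162).

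Pdgfd encodes a ligand of the beta receptor that is secreted latent and activated by proteases. Its single probe is shown because the decrease rests on it (mm9; the strand as on the array):
Pdgfd probe chr9:6376926-6376985: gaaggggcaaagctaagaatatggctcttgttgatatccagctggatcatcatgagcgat
Values were 1.68, 1.59 and 1.58 in DMSO, 1.49, 1.56 and 1.69 in rapamycin, 0.22, 0.77 and 1.23 in BA+DMSO, and 0.01, -0.13 and 0.33 in BA+rapamycin. Every challenged array was lower than every unchallenged array. The fall between BA+DMSO and DMSO was -0.87 (SE 0.24, 95% interval -1.39 to -0.36), with an adjusted p of 0.0253, and between BA+rapamycin and rapamycin it was -1.51 (SE 0.24, 95% interval -2.03 to -0.99), with an adjusted p of 0.00133. BA+rapamycin was lower than BA+DMSO by -0.67 (unadjusted p 0.0162, adjusted p 0.183). The interaction was -0.63 (SE 0.33, adjusted p 0.737), so the 2 challenge effects were not shown to differ. Without BA+DMSO replicate 3 these 2 values were -0.42 and -0.39, and without BA+DMSO replicate 1 they were -0.93 and -0.89. With gene-by-gene array weights they were -0.18 and -0.12, and with the title date as a block -0.21 and -0.26. The first fall lost its call without any 1 of the 3 DMSO arrays (-0.84 to -0.89, adjusted p 0.0664 to 0.0818) or without BA+DMSO replicate 1 (-0.62, adjusted p 0.0776). At the main difference of -0.87, its adjusted p was 0.128 with only the arrays compared and 0.0679 with no filter on dim probes. The SD was 0.06 in DMSO and 0.50 in BA+DMSO, while the main fit used 1 spread for all groups. With the slide as a fixed block the first fall was -1.01 (adjusted p 0.455), with the title date as a block -1.13, and with the brightness covariate the falls were -0.57 (adjusted p 0.152) and -0.97 (adjusted p 0.136). Among the arrays on slide 2, BA+rapamycin stood below rapamycin, with a difference of -1.55 (adjusted p 0.00648), the same fit as without rapamycin replicate 1. Among 9 tested smooth muscle markers, all above background on at least 1 array, 1 fell between BA+DMSO and DMSO (Lmod1, -1.91, adjusted p 0.0019), beside 10.8% of all probes lower, and the median of the list was -0.61. Of the same 9, 3 fell between BA+rapamycin and rapamycin (Lmod1, Myocd and Des) and 1 rose (Tagln), beside 22.9% of all probes lower and 18.9% higher, and the median was -0.46. The summed level of the 9 went the other way, with 2694 to 3156 in rapamycin and from 3547 to 4588 in BA+rapamycin. The part of these markers in the fall of Pdgfd was not tested.

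**Figure D2:**
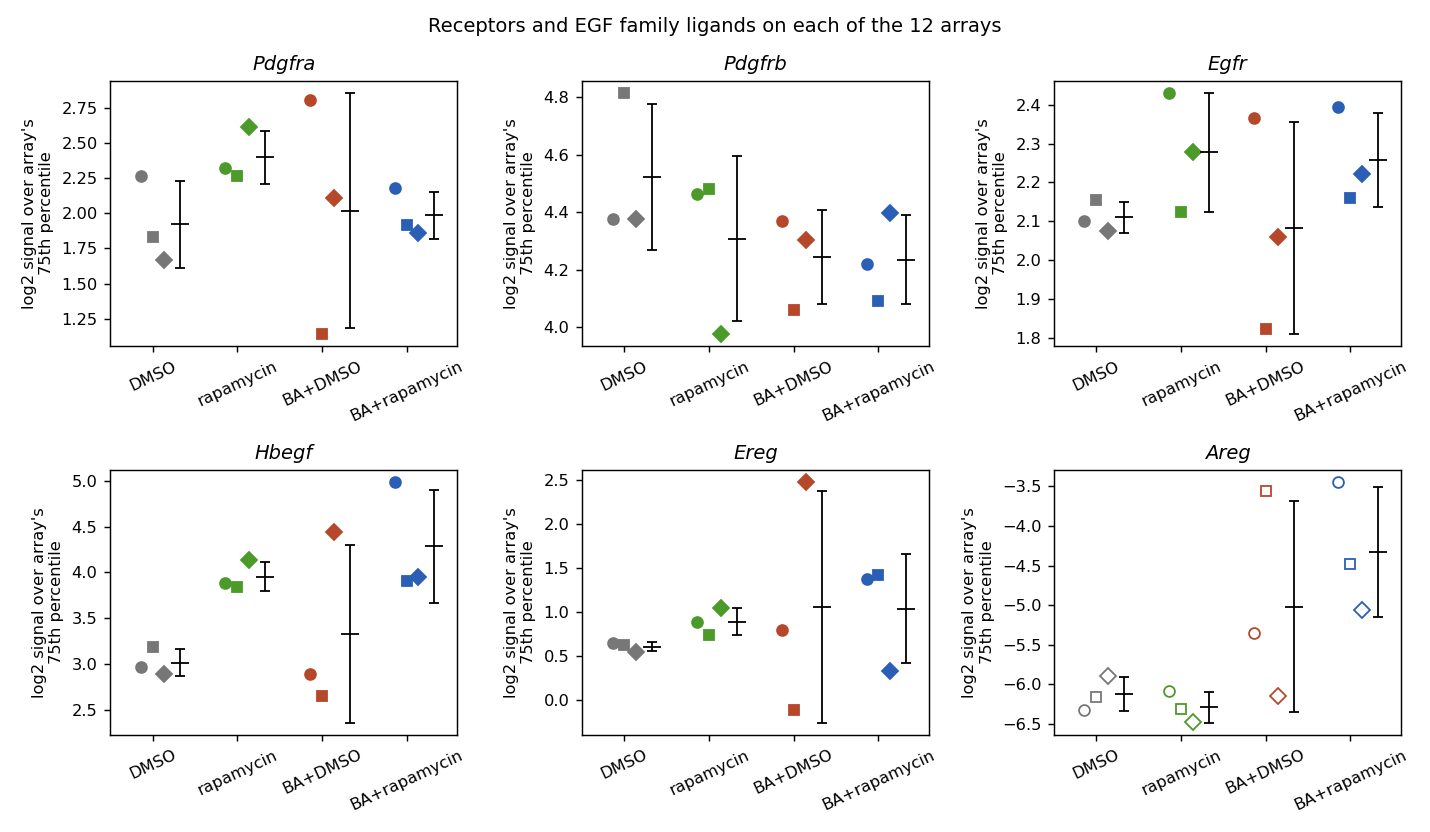
Values of the PDGF receptors, Egfr and 3 EGF family ligands on each array (log2 signal over the array's 75th percentile), by group; circles, squares and diamonds are replicates 1, 2 and 3, open symbols are spots not well above background, and bars give the mean and SD of 3. Hbegf of the rapamycin arrays lies above that of the DMSO arrays, and Areg is open on every array.

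Pdgfra and Pdgfrb encode the alpha and beta receptor tyrosine kinases. Pdgfra ranged from 1.67 to 2.26 in DMSO, 2.26 to 2.61 in rapamycin, 1.14 to 2.81 in BA+DMSO and from 1.86 to 2.18 in BA+rapamycin. Its difference between BA+DMSO and DMSO was 0.10 (SE 0.35, 95% interval -0.66 to 0.86, adjusted p 0.866), and it was negative after normexp background correction (-0.05), while it was 0.59 with the brightness covariate (adjusted p 0.31) and 0.76 with gene-by-gene array weights (adjusted p 0.0251). Pdgfrb ranged from 4.38 to 4.81 in DMSO, 3.98 to 4.48 in rapamycin, 4.06 to 4.37 in BA+DMSO and from 4.09 to 4.4 in BA+rapamycin. It was -0.28 (SE 0.20, 95% interval -0.72 to 0.16, adjusted p 0.351) between BA+DMSO and DMSO. Its direction was the same under 24 of 25 alternatives, turning to 0.17 with the title date as a block. Its size varied, with -0.04 with the slide as a fixed block, -0.13 without DMSO replicate 2 and -0.49 after normexp background correction. The 95% intervals above include differences of 0.86 in Pdgfra and -0.72 in Pdgfrb, so the arrays do not show that receptor RNA was unaltered.

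Hbegf encodes heparin-binding EGF-like growth factor, which binds EGFR. DMSO arrays gave 2.97, 3.19 and 2.90, and rapamycin arrays 3.89, 3.84 and 4.13, with no overlap. BA+DMSO arrays gave 2.89, 2.66 and 4.44, and BA+rapamycin arrays 4.99, 3.91 and 3.95. Rapamycin was 0.94 above DMSO (SE 0.43, 95% interval 0.000665 to 1.87, unadjusted p 0.0499, adjusted p 1.0) and BA+rapamycin 0.95 above BA+DMSO (SE 0.43, 95% interval 0.02 to 1.89, unadjusted p 0.0463, adjusted p 0.242), a size of 1.91-fold and 1.94-fold that did not pass the adjustment. The second difference was 1.51 without BA+DMSO replicate 3, 0.62 without BA+DMSO replicate 2, and 0.60 without BA+rapamycin replicate 1. With the title date as a block it was 2.10, which is BA+rapamycin replicate 1 against BA+DMSO replicate 1, the 1 pair that shares a date. In the 2 DMSO and 2 rapamycin arrays whose titles share a date, the difference was also 0.94, given with no test, and on slide 1 the 1 rapamycin array was 0.87 above the mean of the 3 DMSO arrays. BA+DMSO replicate 3 set the spread of its group, and without it the challenge difference went from 0.31 (adjusted p 0.637) to -0.24, and with the title date as a block it was -1.12. With the brightness covariate, Hbegf was higher in BA+rapamycin than in BA+DMSO by 1.49 (adjusted p 0.048) and in BA+DMSO than in DMSO by 1.26 (adjusted p 0.0301).

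Ereg encodes epiregulin, a ligand of EGFR and ErbB4. It read 0.65, 0.63 and 0.55 in DMSO, 0.89, 0.74 and 1.05 in rapamycin, 0.80, -0.11 and 2.48 in BA+DMSO and 1.38, 1.42 and 0.33 in BA+rapamycin. The rapamycin arrays lay above the DMSO arrays, and both challenged groups overlapped them. The difference between BA+DMSO and DMSO was 0.45 (SE 0.52, 95% interval -0.70 to 1.60, adjusted p 0.575), and it was -0.26 without BA+DMSO replicate 3 and -0.89 with the title date as a block. It was 1.03 without BA+DMSO replicate 2 (adjusted p 0.119) and 1.52 with the brightness covariate (adjusted p 0.0566). Areg, amphiregulin, had 1 probe that was not well above background on any of the 12 arrays, so its level has only an upper bound here.

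Egfr had 3 probes, tied by their accessions to 2 transcript variants. Whether a probe also reads the other variant was not examined. The sequence of a probe annotated to variant 2 (mm9) is shown. It was chosen after its values were seen, because it gave the smallest adjusted p of the 3 between BA+rapamycin and rapamycin:
Egfr probe chr11:16783556-16783615: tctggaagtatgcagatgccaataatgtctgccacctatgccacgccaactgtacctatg
The lead probe, on transcript variant 1, gave 2.10, 2.15 and 2.07 in DMSO and 2.37, 1.82 and 2.06 in BA+DMSO. Rapamycin gave 2.43, 2.12 and 2.28, and BA+rapamycin 2.39, 2.16 and 2.22. The difference between BA+DMSO and DMSO was -0.03 (SE 0.17, 95% interval -0.41 to 0.36, adjusted p 0.928), with a sign that turned under quantile normalization (0.06) and 75th percentile scaling over detected probes (0.04). The 2 other probes, on variant 2, gave 0.12 and 0.27 (adjusted p 0.73 and 0.328) for this comparison, and no Egfr probe was called in any comparison. For the probe shown above, BA+rapamycin arrays (0.55, 0.62 and 0.19) lay above the rapamycin arrays (0.12, -0.06 and 0.09), with an adjusted p of 0.102.

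**Figure D3:**
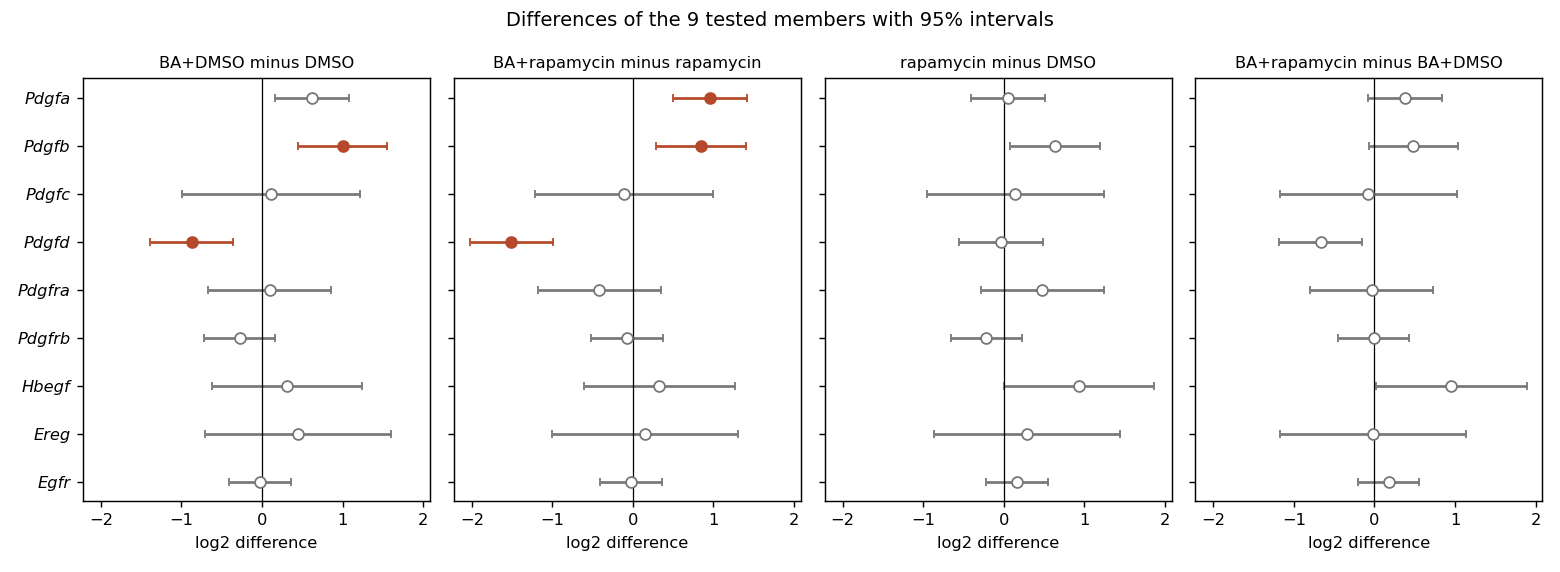
Differences in log2 signal of the 9 tested members, with 95% intervals, in 4 comparisons; filled red points have an adjusted p under 0.05. Pdgfb and Pdgfd are filled in the comparison of BA+DMSO with DMSO, Pdgfa joins them in that of BA+rapamycin with rapamycin, and no point is filled in either rapamycin comparison.

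Genes around these ligands and receptors were taken from 7 lists of 77 genes, of which 64 were tested. Between BA+DMSO and DMSO, 7 rose and 7 fell (21.9%, beside 20.5% of all probes), with a median of -0.07. Of 3 tested EGF family ligands outside the members, Btc (betacellulin, a ligand of EGFR and ErbB4) was called lower, but it was well above background on 3 DMSO arrays and only 1 BA+DMSO array, so no size is given for its difference. The other 2 ligands did not pass in this comparison. All 3 were called between BA+rapamycin and rapamycin: Epgn, epigen, was higher by 1.57 (adjusted p 0.0057), while Btc and Nrg1, neuregulin 1, were lower, with 0 and 1 of the 3 BA+rapamycin arrays well above background. Of 2 tested ErbB receptors, Erbb4 fell by 1.08 (adjusted p 0.0361). Of 12 genes of ligand shedding and processing, 2 rose: Adam12, a metalloproteinase that can release HB-EGF, by 2.56 (adjusted p 0.000334) and Plau, the urokinase that can activate PDGF-D, by 2.14 (adjusted p 0.00251), with 2 of the 3 DMSO arrays well above background. Nrp2, a coreceptor of vascular growth factors, rose by 1.42 (adjusted p 0.00599), 1 of 10 receptor partners. Of 13 signalling adaptors 1 rose and 3 fell, among them Gab1 (-1.42, adjusted p 0.0231), Sos2 (-1.08, adjusted p 0.00956) and Ptpn11 (-0.58, adjusted p 0.0459), which link receptors to Ras and ERK, and Gab1 was well above background on 2 of the 3 BA+DMSO arrays. Lrig2 was the 1 of 14 receptor inhibitors that passed, at 0.63 (adjusted p 0.0318). Of 10 tested ERK output genes, 2 rose, with Etv4 at 2.06 (adjusted p 0.000607), and 2 fell: Etv1 (-1.21, adjusted p 0.00348) and Egr1 (-1.17, adjusted p 0.0247), both transcription factors. Between BA+rapamycin and rapamycin, 11 of the 64 rose and 14 fell (39.1%, beside 41.7% of all probes). In either rapamycin comparison no listed gene passed.

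**Figure D4:**
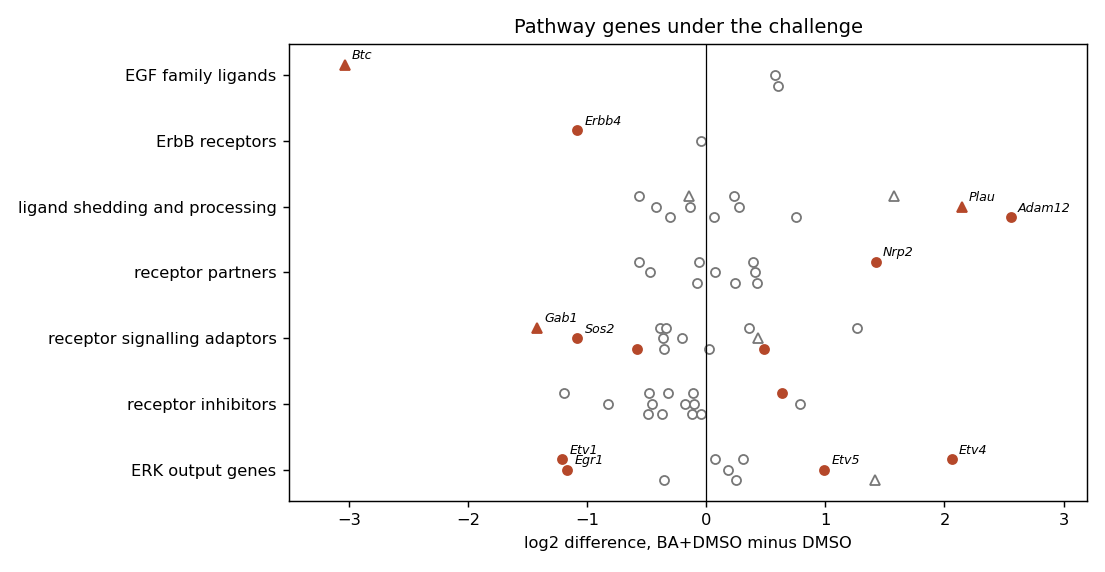
Difference between BA+DMSO and DMSO (log2) of the tested genes of 7 pathway lists; each point is a gene, filled red where the adjusted p was under 0.05, and triangles are genes not well above background on at least 1 of the 6 arrays compared, whose position rests in part on spots not well above background. Among the circles, called genes lie on both sides of 0, with Adam12 at 2.56 and Etv1 at -1.21.

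The patterns most like those of the called members over the 12 arrays were found among the tested genes, by Pearson's r with the lead probe, as a description. For Pdgfd they were Rarres2, Sost and Tmem109, with r of 0.995, 0.995 and 0.992. For Pdgfa they were Tirap, Ext2 and B230312A22Rik, with r of 0.984, 0.980 and 0.977. For Pdgfb they were Tgfb1, Smoc2 and Junb, with r of 0.937, 0.928 and 0.926. The arrays share the groups, slides and brightness, which all enter such likeness.

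**Figure D5:**
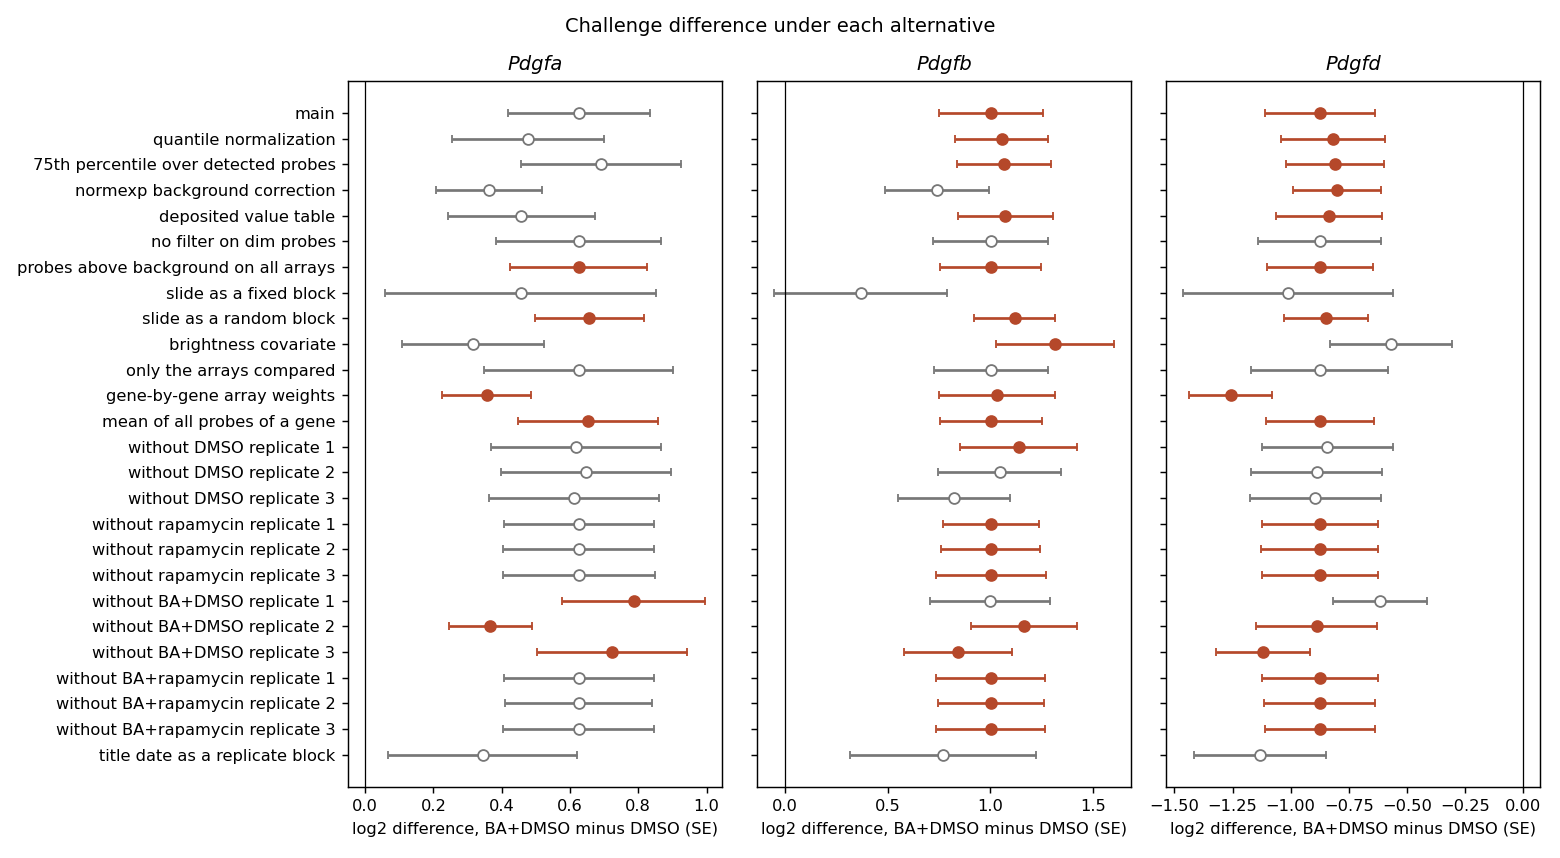
Difference between BA+DMSO and DMSO (log2, bars give the SE) of Pdgfa, Pdgfb and Pdgfd under each setting tried; filled red points have an adjusted p under 0.05. The sign is the same under every setting, and Pdgfb is lowest, at 0.37, with the slide as a fixed block.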

How the data were processed

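Total RNA from 12 aortas was labelled with Cy3 and hybridised to 1-colour Agilent arrays. The authors extracted the images with Agilent Feature Extraction (9.5.1.1 in the submitters' processing notes, 10.7.1.1 per the file headers) and deposited processed signals as intensity values, with quality flags per spot, together with a table of quantile-normalized intensity values. Of 62976 spots, 3671 were controls and left out. In R 4.3.3 with limma 3.58.1, outlier spots were removed, log2 intensities were scaled to each array's 75th percentile and spots averaged per probe, and 6 of 55681 probes with no value on an array were left out. A probe entered the test, as 27801 did, if on all 3 arrays of a group a share of 0.5 or more of its spots was well above background. Groups came from the treatment labels. One limma model over 4 groups gave 5 contrasts, with moderated errors and Benjamini-Hochberg adjustment over all tested probes. Each gene is given by the probe with the highest mean, with the others named. All 10 members are named, with up to 3 genes per pathway list that were called with the largest differences, and the 3 genes most like each called member. The members and the lists were chosen with earlier results of these data known. With arrays, the precision is limited by their number: 3 against 3 cannot give an exact permutation p below 0.1. On simulated data with 27801 probes, 22% of 100 probes changed by 1 log2 unit and 65% of 100 changed by 2 were called. No other probe was changed there, and each probe had the same spread in all groups. In the data 20.5% of probes were called between BA+DMSO and DMSO, and the adjustment depends on that share. The simulated shares are therefore not the power of the comparisons here. RefSeq names matched the accessions of all 14 member probes.

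Alternatives were quantile normalization, scaling over detected probes, normexp background correction with an offset of 50, the deposited value table, other filters, slide or the date in the titles as a block, brightness as a covariate, only the arrays compared, gene-by-gene weights, the study's threshold, the mean of a gene's probes, and leaving out each array.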

Additional observations from a re-analysis of the deposited data

How the results depend on the processing

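For the members called between BA+DMSO and DMSO (2), the count was 1 with normexp background correction, 0 with no filter on dim probes, 0 with the slide as a fixed block, 0 with only the arrays compared, 0 at the study's threshold (unadjusted p under 0.01 and a fold over 4 or under 0.25), 4 with gene-by-gene weights, 0 with the title date as a replicate block, and leaving out 1 array gave 0 to 3. It was 3 with probes above background on all arrays, the slide as a random block and the mean of all probes, with Pdgfa added, and 3 with the brightness covariate (Hbegf, Pdgfb and Pdgfc). For rapamycin under challenge (0), it was 1 with the brightness covariate, 2 with gene-by-gene weights, and 0 to 1 when 1 array was left out, and for the interaction (0) it was 0 to 1 with 1 array left out. Over all 27801 probes, where rapamycin under challenge had 78 calls, these settings gave 312, 7094 and, without BA+DMSO replicate 2, 11092, and the interaction went from 0 to 3058 without that array. Between BA+rapamycin and rapamycin (3) the study's threshold gave 0 and the title date as a replicate block 1. It was 2 with normexp, the slide as a fixed block and the brightness covariate (Hbegf and Pdgfc), and 2 to 3 with 1 array left out. With no filter it was 4, since Areg was also called, with no array well above background. Counts for rapamycin alone were 0 under all settings. Gene-by-gene weights, comparisons within a slide and the uses of the dates in the titles were chosen after seeing the data, and limma's default array weights did not converge and are not given.

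These signs turned; the cause was not tested. The challenge difference of Egfr was 0.0644 with quantile normalization, 0.0386 with scaling over detected probes, 0.0517 in the deposited value table, 0.20 with the slide block, 0.0926 with the brightness covariate, 0.19 with gene-by-gene weights, 0.12 as the mean of all probes and 0.0916 with the date block, and -0.17 to 0.10 with 1 array left out. That of Pdgfra was -0.0493 with normexp and -0.0186 with the slide block, and -0.30 to 0.54 with 1 array left out. That of Pdgfrb was 0.17 with the date block. That of Pdgfc was -0.18 with the slide block, -0.82 with the date block and -0.51 to 0.72 with 1 array left out. That of Hbegf was -0.00221 with gene-by-gene weights, -1.12 with the date block and -0.24 to 0.65 with 1 array left out. That of Ereg was -0.89 with the date block and -0.26 to 1.03 with 1 array left out. Between BA+rapamycin and rapamycin, Pdgfc was 0.0116 with quantile normalization, 0.0721 with scaling over detected probes, 0.0117 in the deposited value table and 2.12 with the brightness covariate, and -0.36 to 0.12 with 1 array left out. Pdgfa, Pdgfb and Pdgfd kept their direction where alternatives were run, which leaves out rapamycin alone for Pdgfa and Pdgfd and the interaction for Pdgfb. For Pdgfd, rapamycin minus DMSO was -0.04, and 0.04 in arrays that share a title date. Between BA+DMSO and DMSO, Pdgfa was called under 7, Pdgfb under 17 and Pdgfd under 16 of 25 alternatives, and between BA+rapamycin and rapamycin under 24, 18 and 25 of 26.

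The replicate numbers follow only the order of deposition and pair no arrays, but titles of 10 arrays carry 1 of 5 dates, some shared between groups. The replicate block (date block) is this date, over those 10 arrays, which leaves out BA+DMSO replicates 2 and 3 and leaves 2 residual degrees of freedom, with the lone BA+DMSO array assumed to vary like the other groups and only DMSO and rapamycin sharing a date with 2 arrays each. Scaling over detected probes moved the all-probe median between BA+rapamycin and rapamycin from -0.08 to 0.10, and the share of higher calls from 45.2% to 56.8%, and normexp moved them to 0.14 and 59.2%. With the slide as a fixed block, 15 of 27801 probes were called between BA+DMSO and DMSO. Array brightness limits what the dim challenged arrays can show.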
